A study of Homo sapiens with 8 samples.

Results

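The E2F transcription factors and the RB family were followed in 2 human uveal melanoma (UVM) cell lines whose APOBEC3B (A3B) level was lowered or raised. The 10 genes were chosen by name out of 19952 gene symbols listed for every library. They are the activators E2F1, E2F2 and E2F3, the pocket protein-dependent repressors E2F4 and E2F5, the atypical repressors E2F7 and E2F8, and the pocket proteins RB1, RBL1 and RBL2. RNA sequencing covered 4 groups with 2 libraries each, 8 libraries in all. The 92.1 line carried either a short hairpin RNA against A3B (shA3B) or the control vector (shCtrl), and the MEL290 line carried either an A3B expression vector (A3B OE) or its control (NC). Both lines are established cell lines, kept in the same medium. Per the study's methods, the hairpin vector and the overexpression vector differ but both carry puromycin resistance. More than 1 hairpin sequence is given there, and the labels do not say which was in the sequenced cells. The labels do not say that replicates came from separate cultures, so p-values measure only the spread between these libraries, which may be technical.

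E2F factors bind DNA, mostly as dimers with a DP protein, at promoters of genes needed for DNA replication and cell division. In resting cells the pocket proteins hold activating E2Fs in check, and RBL1 and RBL2 pair with E2F4 or E2F5 to form repressing complexes. Cyclin-dependent kinases phosphorylate the pocket proteins as cells enter S phase, which frees the activators, while E2F7 and E2F8 bind without a DP partner or a pocket protein and lower the same promoters later in the cycle. Several members, including E2F1, E2F2, E2F7, E2F8 and RBL1, are themselves known E2F targets.

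The sequence just before the start site is shown for the members whose promoter held an E2F-type site. Of these, E2F1, E2F2 and RBL1 had higher values in both A3B OE libraries than in both NC libraries, and E2F3 had lower values. E2F8 and RB1 were also higher in both. E2F8 had no promoter to search, and the listed RB1 window, whose start lies inside the gene, held no site. The windows are the 100 bases before the start site in RefSeq's promoter table (GRCh38.p14), written 5′ to 3′ on the strand of the gene, and capitals mark an E2F site. They lie at chr20:33686386-33686485 for E2F1, chr20:37095998-37096097 for RBL1 and chr1:23531234-23531333 for E2F2, all on the minus strand, and at chr6:20401779-20401878 on the plus strand for E2F3.
E2F1: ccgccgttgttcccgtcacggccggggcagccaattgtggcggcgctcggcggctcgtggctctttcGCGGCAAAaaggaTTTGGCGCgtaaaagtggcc
RBL1: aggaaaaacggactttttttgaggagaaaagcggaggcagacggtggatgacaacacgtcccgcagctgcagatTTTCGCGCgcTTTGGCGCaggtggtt
E2F2: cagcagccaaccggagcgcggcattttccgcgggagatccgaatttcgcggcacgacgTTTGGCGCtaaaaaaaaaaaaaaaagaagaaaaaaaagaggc
E2F3: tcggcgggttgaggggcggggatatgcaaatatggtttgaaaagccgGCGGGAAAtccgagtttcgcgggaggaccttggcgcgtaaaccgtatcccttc

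The 4 forms TTTCCCGC, TTTCGCGC, TTTGCCGC and TTTGGCGC were searched on both strands in the 300 bases from 250 before to 50 after each start site, and none of the matches overlapped. E2F1 held 2 sites, from -33 to -26 on the opposite strand and from -20 to -13. RBL1 held 2 as well, from -26 to -19 and from -16 to -9. The single site of E2F2 lay at -42 to -35, and that of E2F3, on the opposite strand, at -53 to -46 beside a cell cycle homology region (TTTGAA) at -65 to -60. No E2F site was found in the windows of E2F4, E2F7 and RBL2, at a second listed start of E2F3, or in the listed window of RB1, whose start lies inside the gene. E2F5 and E2F8 had no entry in RefSeq's promoter table and were not searched. TTTGAA was also found in a window of RBL2, at 25 to 30 bases after the start site. Of 35116 promoter windows of this length, 3.31% held any of the 4 forms and 15.2% held TTTGAA, while 17 of 37 windows of textbook E2F target genes (45.9%) held one of the 4 forms. A match is a description of letters and not a measured binding site.

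The deposited values are FPKM, which are fragment counts scaled by transcript length and by the mapped fragments of the library. FPKM does not carry the depth, and the values have no counting interval. A3B itself followed the labels. It was at 35.9 and 32.3 FPKM in shCtrl and 1.98 and 2.37 in shA3B cells, and at 2.67 and 2.19 FPKM in NC and 28.4 and 27.5 in A3B OE cells. Each library listed 11389 to 11524 genes at 1 FPKM or more. In 92.1, 8 of 8 melanocytic markers reached 1 FPKM, with a summed level of 7116 to 8713 FPKM. In MEL290 only 1 or 2 of the 8 did, with a summed level of 15.2 to 20.7 FPKM, nearly all of it MITF, so the defining melanocytic markers of the labelled cell type were largely absent from this line. Immune markers summed to at most 0.780 FPKM, endothelial to at most 0.115 and epithelial to at most 2.75 in any library, while the fibroblast list summed to 27.2 to 40.8 FPKM in MEL290 and 1.67 to 2.92 in 92.1. Nearly all of that was COL1A1, and COL1A2, COL3A1 and DCN were at 0 to 0.260 FPKM in every library.

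E2F4 had the highest FPKM of the 10 genes in every group and E2F8 the lowest, but the order between them differed by line. In 92.1 shCtrl cells E2F4 (42.1 ± 1.37 FPKM, SD, n = 2) was followed by E2F3 (30.7 ± 3.56), E2F1 (29.6 ± 0.599) and E2F5 (24.8 ± 1.16), and E2F3 and E2F1 overlapped. Then came RBL2 (9.70 ± 1.82), RB1 (7.98 ± 0.866), E2F2 (7.45 ± 1.01) and E2F7 (7.39 ± 1.18), each overlapping its neighbour, and last RBL1 (3.27 ± 0.756) and E2F8 (2.60 ± 0.238), which overlapped too. In MEL290 NC cells the pocket proteins RB1 (19.9 ± 0.640 FPKM, SD, n = 2) and RBL2 (17.5 ± 1.90) came directly after E2F4 (29.2 ± 2.28). E2F3 (10.8 ± 0.195), E2F1 (10.3 ± 0.374), E2F7 (9.85 ± 0.514) and E2F5 (8.83 ± 2.69) followed, of which E2F1 overlapped E2F7 and E2F7 overlapped E2F5, and then RBL1 (2.48 ± 0.0628), E2F2 (0.311 ± 0.0275) and E2F8 (0.169 ± 0.00835). The leading 4 genes of 92.1 were thus all E2F genes, while in MEL290 RB1 and RBL2 followed E2F4.

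**Figure D1:**
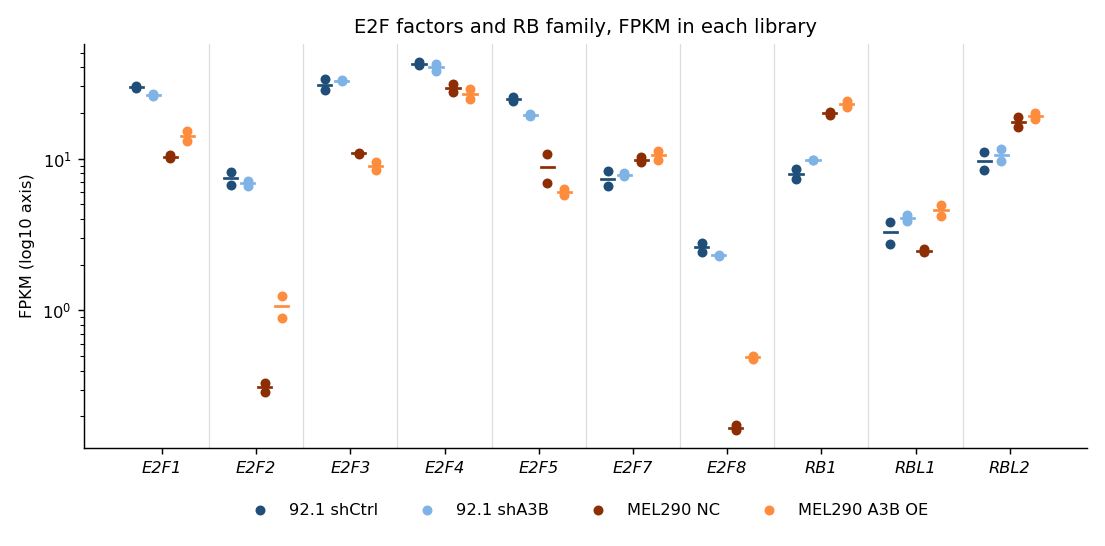
FPKM of the 10 genes (log10 axis) in each of the 8 libraries, with points for libraries and a bar for the mean of each group. E2F4 lies at the top in every group. E2F2 and E2F8 lie far lower in MEL290 than in 92.1, with A3B OE above NC, and RB1 and RBL2 lie higher in MEL290.

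Differences were tested with limma on log2(FPKM + 1) in each line alone, for genes with at least 1 FPKM in at least 2 of the 4 libraries, and a gene was called at a Benjamini-Hochberg adjusted p under 0.05 over all genes tested. On this scale the change of a gene near or under 1 FPKM is compressed. In MEL290, 1 of the 8 tested members was called, RBL1, which was higher in A3B OE cells, where 17.8% of all 11611 genes tested were called (10.3% higher and 7.49% lower). Of all 10 members, 5 had A3B OE libraries that both lay above both NC libraries (E2F1, E2F2, E2F8, RB1 and RBL1) and 2 had them both below (E2F3 and E2F5), where 31.5% of all genes tested lay above and 29.7% below. In 92.1, 0 of 10 members were called, against 0.00862% of 11605 genes, which is A3B alone, while 336 genes had an unadjusted p under 0.05 by limma. Of the members, 1 (E2F5) had an unadjusted p under 0.05 in 92.1. The shA3B libraries both lay above shCtrl for 2 members (RB1 and RBL1) and both below for 3 (E2F1, E2F5 and E2F8), where 15.3% of all genes lay above and 13.3% below. An exact two-sided permutation test of 2 libraries against 2 cannot give a p under 0.33.

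**Figure D2:**
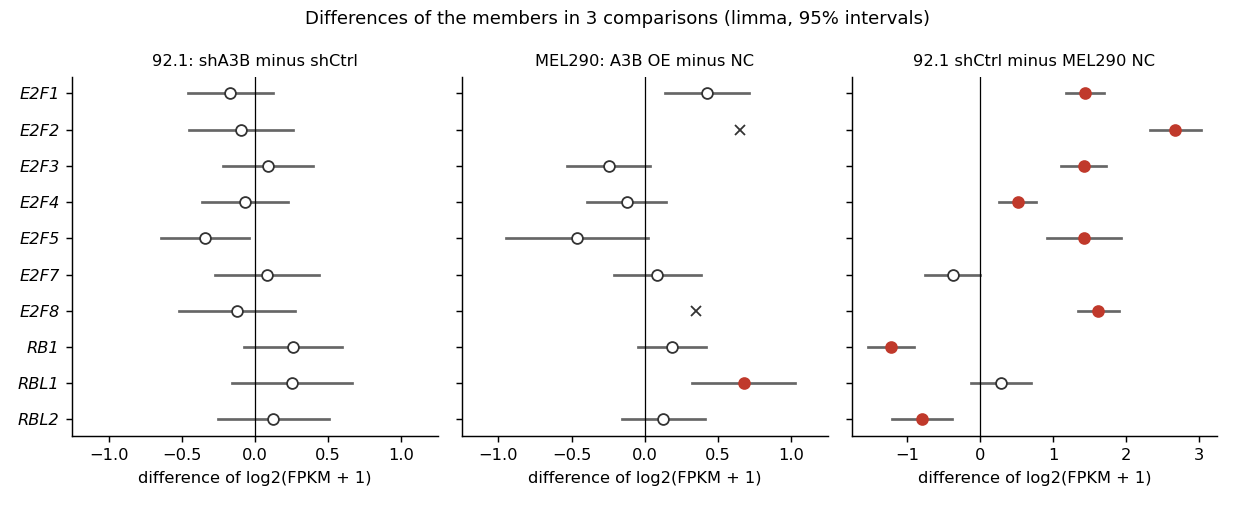
Differences of log2(FPKM + 1) for the 10 genes in 3 comparisons, with 95% intervals from limma. Filled points passed an adjusted p of 0.05, open points did not, and crosses mark E2F2 and E2F8 in MEL290, which were below the filter and were not tested. RBL1 is the filled point in MEL290, 0 points are filled in 92.1, and 8 are filled between the control groups.

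The activators did not move together with A3B overexpression. E2F1, whose protein drives entry into S phase, lies at chr20:33675477-33686385 on the minus strand and was at 10.5 and 10.0 FPKM in NC and 15.2 and 13.1 FPKM in A3B OE cells. The lower A3B OE library lay above the higher NC library, and the mean was 1.38-fold that of NC. The log2 difference was 0.42 (95% interval 0.14 to 0.71), which did not pass over all genes tested (limma adjusted p = 0.057). E2F1 sat at the threshold: it passed with upper quartile scaling (adjusted p = 0.041, limma), after rescaling to TPM (0.0497), with all 8 libraries in 1 fit (0.030) and with a GC and length trend taken out (0.047), and its adjusted p ran from 0.030 to 0.12 over 10 alternatives. With each library left out in turn, the log2 difference of E2F1 ran from 0.32 to 0.53. Larger and smaller shares of dividing cells, and more or less RNA per cell, cannot be told apart in these bulk libraries.

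E2F2, the activator with the lowest level here, lies at chr1:23506438-23531233 on the minus strand. It was at 0.331 and 0.292 FPKM in NC and 1.24 and 0.895 FPKM in A3B OE cells. Both A3B OE libraries exceeded both NC libraries, and the mean was 3.44-fold higher, but only 1 library reached 1 FPKM, so E2F2 was not tested in MEL290. With no filter on low FPKM its log2 difference of 0.65 had an adjusted p of 0.060 (limma). E2F3, at chr6:20401879-20493714 on the plus strand, went the other way, with 11.0 and 10.7 FPKM in NC and 8.39 and 9.57 FPKM in A3B OE cells. Its log2 difference was -0.25 (95% interval -0.53 to 0.04, adjusted p = 0.20, limma), so a fall was not called.

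In 92.1 the activators differed little between shA3B and shCtrl. E2F1 was at 29.2 and 30.0 FPKM in shCtrl and 26.5 and 25.9 FPKM in shA3B cells, with a log2 difference of -0.17 (95% interval -0.46 to 0.12). E2F2 was at 6.74 and 8.16 against 6.60 and 7.14 FPKM, and E2F3 at 33.3 and 28.2 against 32.9 and 32.3 FPKM, and in both genes the groups overlapped. None of the 3 passed (adjusted p = 0.999 for each, limma).

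E2F4 and E2F5, which work as repressors together with RBL1 and RBL2, had log2 differences below 0 in both lines, and none of these was called. E2F4 (chr16:67192155-67198918, plus strand) was at 30.8 and 27.6 FPKM in NC and 28.8 and 24.7 FPKM in A3B OE cells, and at 41.1 and 43.1 FPKM in shCtrl and 42.2 and 38.0 FPKM in shA3B cells. The groups overlapped in both lines, and the log2 differences of -0.12 in MEL290 and -0.07 in 92.1 were not called (adjusted p = 0.49 and 0.999, limma). E2F5 was at 10.7 and 6.93 FPKM in NC and 6.28 and 5.73 FPKM in A3B OE cells, so the 2 NC libraries differed more from each other than NC replicate 2 did from the A3B OE libraries. Its log2 difference of -0.46 (95% interval -0.95 to 0.02) was not called (adjusted p = 0.17, limma). It became -0.74 and passed (adjusted p = 0.0089, limma) without NC replicate 2, and was -0.18 (adjusted p = 0.59) without NC replicate 1. In these fits NC is a single library, its spread is taken from the A3B OE libraries, and the wide gap between the NC libraries does not enter.

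In 92.1, E2F5 was the member with the largest absolute difference. It was at 25.6 and 24.0 FPKM in shCtrl and 19.1 and 19.6 FPKM in shA3B cells, without overlap, a log2 difference of -0.34 (95% interval -0.64 to -0.04). The unadjusted p of 0.029 did not survive adjustment over all genes tested (adjusted p = 0.999, limma). E2F5 shares part of its locus with RBIS on the opposite strand. The library kit is not stated to keep strand, so reads in the shared stretch could count for either gene.

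For the atypical repressors, the MEL290 groups overlapped in E2F7 and were separate in E2F8. E2F7 (chr12:77021248-77065569, minus strand) was at 9.49 and 10.2 FPKM in NC and 9.79 and 11.3 FPKM in A3B OE cells, and at 8.23 and 6.56 FPKM in shCtrl and 8.03 and 7.64 FPKM in shA3B cells. The groups overlapped in both lines, with log2 differences of 0.09 in MEL290 (95% interval -0.21 to 0.38) and 0.08 in 92.1 (-0.28 to 0.44). E2F8 (chr11:19224063-19241620, minus strand) was at 0.175 and 0.163 FPKM in NC and 0.480 and 0.503 FPKM in A3B OE cells. Its A3B OE mean was 2.91-fold that of NC, with no overlap, yet all 4 libraries were under the filter of 1 FPKM. With no filter its log2 difference of 0.35 had an adjusted p of 0.037 (limma). In 92.1, E2F8 was at 2.43 and 2.77 FPKM in shCtrl and 2.28 and 2.33 FPKM in shA3B cells, a log2 difference of -0.12 (95% interval -0.52 to 0.27) that was not called.

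Among the pocket proteins, RBL1 (p107) was higher after A3B overexpression. RBL1, which is known to accumulate as cells cycle, lies at chr20:36996349-37095997 on the minus strand and was at 2.43 and 2.52 FPKM in NC and 4.16 and 4.98 FPKM in A3B OE cells. The groups did not overlap, and the A3B OE mean was 1.84-fold that of NC. RBL1 rose by 0.68 on the log2 scale (standard error 0.14, 95% interval 0.33 to 1.03, adjusted p = 0.026, limma). The call held in 9 of 10 alternatives (adjusted p from 0.020 to 0.077) and was lost with no filter on low FPKM. It was also lost without A3B OE replicate 1 (log2 difference 0.78, adjusted p = 0.067) and without A3B OE replicate 2 (0.57, adjusted p = 0.12), when the remaining A3B OE library is assumed to vary as the NC libraries do. In 92.1, RBL1 was at 3.81 and 2.74 FPKM in shCtrl and 3.87 and 4.23 FPKM in shA3B cells, a log2 difference of 0.25 (95% interval -0.16 to 0.66) with an adjusted p of 0.999 (limma).

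RB1, the retinoblastoma protein gene (chr13:48303744-48599436, plus strand), had a log2 difference above 0 in both lines and was called in neither. It was at 19.4 and 20.3 FPKM in NC and 21.8 and 23.8 FPKM in A3B OE cells (log2 difference 0.19, 95% interval -0.04 to 0.42, adjusted p = 0.23, limma). In 92.1 it was at 8.59 and 7.36 FPKM in shCtrl and at 9.73 FPKM in both shA3B libraries (0.26, -0.08 to 0.60, adjusted p = 0.999). The groups did not overlap in either line. RBL2 (p130), the pocket protein typical of resting cells, lies at chr16:53433977-53491648 on the plus strand. It was at 18.8 and 16.1 FPKM in NC and 18.2 and 20.1 FPKM in A3B OE cells, and at 11.0 and 8.42 FPKM in shCtrl and 9.64 and 11.6 FPKM in shA3B cells. Its groups overlapped in both lines, with log2 differences of 0.13 in each. RB1 overlaps LPAR6 and RCBTB2, and RBL2 overlaps AKTIP, all on opposite strands, so strandless reads in those stretches are uncertain.

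Summed over each class, the largest contrast was between the lines. The activators E2F1 to E2F3 summed to 67.8 ± 1.96 FPKM in shCtrl, 65.7 ± 0.433 in shA3B, 21.4 ± 0.596 in NC and 24.2 ± 0.921 in A3B OE (SD over 2 libraries). The pocket proteins summed to 20.9 ± 3.44, 24.4 ± 1.65, 39.8 ± 1.20 and 46.5 ± 3.40 FPKM in the same order. The summed activators were thus 3.27 ± 0.443 and 2.70 ± 0.200 times the summed pocket proteins in shCtrl and shA3B cells, but 0.538 ± 0.00123 and 0.523 ± 0.0581 times in NC and A3B OE cells. E2F4 and E2F5 together summed to 66.9 ± 0.212, 59.5 ± 2.66, 38.0 ± 4.96 and 32.8 ± 3.26 FPKM. E2F7 and E2F8 together stayed between 9.32 and 11.8 FPKM in all 8 libraries, although E2F8 added 2.28 to 2.77 FPKM of it in 92.1 and at most 0.503 in MEL290. Within the E2F genes of MEL290, E2F1 made up 14.8% ± 0.540 of the summed FPKM in NC and 20.8% ± 1.27 in A3B OE cells (SD, n = 2), while E2F5 made up 12.6% ± 2.95 and 8.82% ± 0.167.

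**Figure D3:**
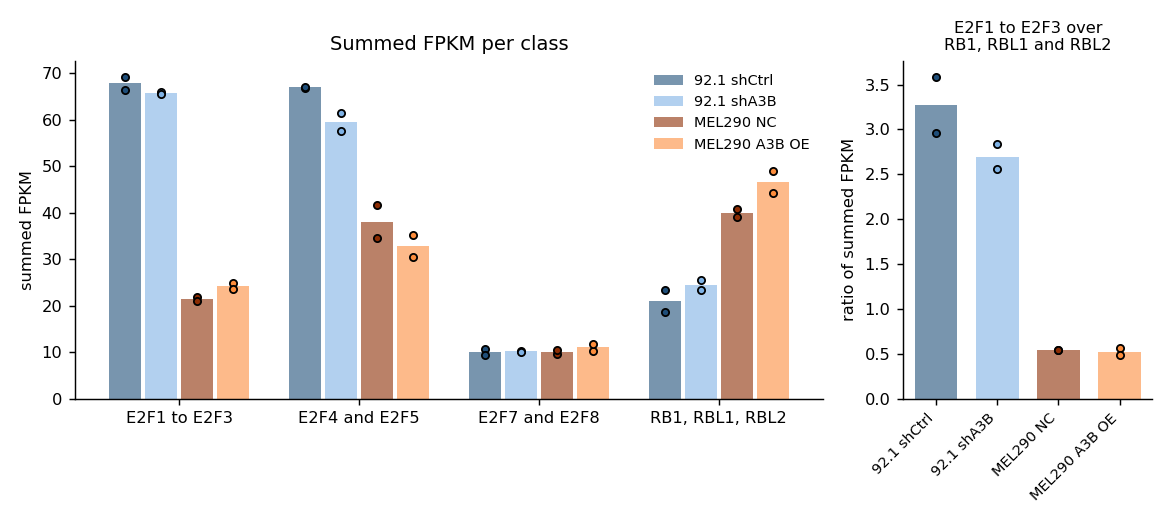
Left, summed FPKM of the activators, the pocket protein-dependent repressors, the atypical repressors and the pocket proteins in the 4 groups, and right, the ratio of summed activators to summed pocket proteins. Bars are means of 2 libraries and points are libraries. The ratio lies above 2.5 in every 92.1 library and below 0.6 in every MEL290 library.

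Between the control groups, 8 of 10 members were called in the comparison of 92.1 shCtrl with MEL290 NC, 6 higher and 2 lower in 92.1, where 73% of 12352 genes tested were called (39.3% higher and 33.7% lower). The groups did not overlap for any of the 10 members, 7 higher and 3 lower in 92.1, and 87.3% of all genes tested did not overlap either. The line and the control vector change together here and cannot be told apart, and these control libraries are also those of the 2 A3B comparisons. E2F2 was 23.9-fold and E2F8 15.4-fold higher in 92.1 by mean FPKM, with log2 differences of 2.68 (standard error 0.14) and 1.62 (0.11). Both met the filter only through the 92.1 libraries, where they were high. In NC they were at 0.292 to 0.331 FPKM (E2F2) and 0.163 to 0.175 FPKM (E2F8), so their folds divide by values near the floor. E2F1, E2F3 and E2F5 were 2.88-fold, 2.84-fold and 2.81-fold higher, with log2 differences of 1.44, 1.42 and 1.42, and E2F4 was 1.44-fold higher, with a log2 difference of 0.51. RB1 was 2.49-fold lower in 92.1 (log2 difference -1.22, standard error 0.13, adjusted p = 0.00042, limma), and RBL2 was 1.80-fold lower (-0.79, adjusted p = 0.0067, limma). E2F7 had a log2 difference of -0.38 (adjusted p = 0.066) and RBL1 of 0.29 (0.16), neither called.

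Some of these calls changed with single libraries or with the setting. The E2F4 difference did not pass without 92.1 shCtrl replicate 2 or without NC replicate 2 (adjusted p = 0.056 for each, limma), nor with a GC and length trend taken out (log2 difference 0.19, adjusted p = 0.11). E2F5 did not pass without shCtrl replicate 1 (adjusted p = 0.070) or replicate 2 (0.065). RBL2 did not pass without shCtrl replicate 2 (0.065), NC replicate 1 (0.10) or NC replicate 2 (0.063), and RBL1 passed without shCtrl replicate 2 (0.032). RBL1 also passed with a GC and length trend taken out (0.0076), and E2F7 passed with quantile normalization (0.048), after rescaling to TPM (0.035) and with all 8 libraries in 1 fit (0.033). A group left with 1 library is assumed to vary as the other group does. The calls of E2F1, E2F3 and RB1 held in every one of these fits. Those of E2F2 and E2F8 held in every fit that tested them. With 1 FPKM required in every library, E2F2 and E2F8 were not tested. The 20 tested genes nearest to E2F1 had a median log2 difference of 0.67 between the lines. Around E2F4 the median was 0.56, where E2F4 itself was 0.51. It was 0.41 around E2F3, 0.36 around E2F5, 0.33 around E2F8, 0.27 around RBL1 and 0.15 around RBL2. Below 0 were the medians around RB1 (-0.03), E2F2 (-0.22) and E2F7 (-0.34).

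The A3B OE effect in MEL290 minus the shA3B effect in 92.1 was tested over all 8 libraries. A3B was raised in the first and lowered in the second, and A3B itself differed by 6.55. A gene that follows A3B alike in both lines also differs here. The test therefore cannot tell a difference between the lines from the opposite direction of the A3B change. Of the 10 members 0 were called (limma), where 4.4% of 12697 genes tested were (3.06% higher and 1.35% lower). An unadjusted p under 0.05 by limma was found for 3 members (E2F1, E2F2 and E2F8), and for 2531 of the 12697 genes. E2F1 differed by 0.59 (95% interval 0.25 to 0.93, adjusted p = 0.068, limma), E2F2 by 0.75 (0.29 to 1.21, adjusted p = 0.082) and E2F8 by 0.47 (0.10 to 0.85, adjusted p = 0.15). With a pseudocount of 0.1, which weighs low FPKM more, E2F2 (1.60, adjusted p = 0.039) and E2F8 (1.30, adjusted p = 0.0497) passed. Both were below the filter in MEL290 and entered this fit through their 92.1 libraries. Their MEL290 values were at most 1.24 FPKM for E2F2 and 0.503 FPKM for E2F8. For RBL1, the difference was 0.42 (-0.08 to 0.92, adjusted p = 0.33, limma). Its A3B OE effect in MEL290 was thus not shown to differ from its shA3B effect in 92.1.

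The E2F partners were called in neither A3B comparison. TFDP1, which encodes the main DP partner, was at 50.1 and 49.0 FPKM in NC and 59.5 and 53.3 FPKM in A3B OE cells (log2 difference 0.18, adjusted p = 0.19, limma). TFDP2 was at 24.7 and 25.9 FPKM in NC and 18.1 and 22.4 FPKM in A3B OE cells (-0.31, adjusted p = 0.13). TFDP3 was listed at 0 in every library. E2F6, a repressor that does not bind pocket proteins, had a log2 difference of 0.11 in 92.1. Of this list 0 of 3 tested genes were called in MEL290, with 1 (TFDP2) at an unadjusted p under 0.05 by limma, and 0 of 3 in 92.1, with 0 at an unadjusted p under 0.05. Of all 11611 genes tested in MEL290, 3848 had an unadjusted p under 0.05. Between the control groups 3 of 3 were called, where 73% of all genes were, with TFDP1 (log2 difference 0.98) and E2F6 (1.83) higher and TFDP2 (-0.37) lower in 92.1.

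Of the kinases that inactivate pocket proteins and their inhibitors, 7 of 13 tested genes were called in MEL290, 5 higher and 2 lower, where 10.3% of all genes tested were higher and 7.49% lower, and the median log2 difference was 0.20 against 0.00 over all genes tested. CDKN1A (p21), an inhibitor of cyclin-dependent kinases, was at 371 and 391 FPKM in NC and 194 and 185 FPKM in A3B OE cells, and fell by 1.00 on the log2 scale (adjusted p = 0.0016, limma). CDK6 fell as well, from 22.2 and 22.7 to 13.8 and 15.5 FPKM (log2 difference -0.59, adjusted p = 0.014). All 4 INK4 inhibitors, which bind CDK4 and CDK6, rose: CDKN2C by 0.81 (from 16.0 and 14.6 to 28.3 and 26.8 FPKM), CDKN2A by 0.66, CDKN2D by 0.56 and CDKN2B by 0.55. CDK2, the partner of cyclin E, rose by 0.72 (from 17.1 and 14.9 to 27.5 and 26.4 FPKM, adjusted p = 0.0089).

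The D and E cyclin genes did not pass in MEL290. CCNE1 was at 5.38 and 4.43 FPKM in NC and 3.17 and 3.64 FPKM in A3B OE cells (log2 difference -0.42, adjusted p = 0.11, limma), CCND1 at 276 and 274 against 251 and 243 FPKM (-0.16, adjusted p = 0.13), and CCND2 was at or near 0 in every library. CDKN1B had a log2 difference of 0.33 (adjusted p = 0.064). With either A3B OE library left out, fewer genes of this list were called in MEL290, as were fewer of all genes tested. In 92.1, 0 of 14 were called, with a median of -0.05, and 1 gene, CDKN1C, had an unadjusted p under 0.05 by limma (log2 difference -0.39, adjusted p = 0.999). Of all 11605 genes tested in 92.1, 336 had an unadjusted p under 0.05. Between the control groups 11 of 14 were called, where 73% of all genes were. CDKN1A was lower in 92.1 (log2 difference -4.18), while CDKN2A (3.80) and CDKN1C (4.60) were higher. CDKN1C met the filter only through 92.1 and was at 0 and 0.0534 FPKM in NC. CDK2 was at 401 to 470 FPKM in 92.1, but it shares 6009 bases with PMEL on the opposite strand, which was at 3777 to 4587 FPKM there, so the level of CDK2 in 92.1 is uncertain.

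The MuvB core joins RBL2 with E2F4 in resting cells and MYBL2 and FOXM1 in dividing cells. Of these 8 genes, 3 were called in MEL290, all 3 higher, where 10.3% of all genes tested were higher, and the median log2 difference was 0.51. MYBL2 (B-MYB) rose from 11.2 and 10.3 to 26.3 and 22.8 FPKM (1.12, adjusted p = 0.0035, limma), FOXM1 from 15.2 and 14.4 to 27.8 and 28.9 FPKM (0.89, adjusted p = 0.0036), and MYBL1 from 13.1 and 11.9 to 16.8 and 20.6 FPKM (0.54, adjusted p = 0.038). The core subunits LIN54 (0.47, adjusted p = 0.063) and RBBP4 (0.26, adjusted p = 0.054) did not pass. In 92.1, 0 of 8 were called by limma and 0 had an unadjusted p under 0.05, with a median of 0.05. Between the control groups 7 of 8 were called, where 73% of all genes were, with MYBL2 higher by 3.12 and FOXM1 by 1.51 in 92.1, and MYBL1 (-1.10) lower.

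Genes known as E2F targets were mostly higher after A3B overexpression. Of 30 textbook targets, none of them a member, 24 were called in MEL290, all 24 higher in A3B OE cells, where 10.3% of all genes tested were higher, and the median log2 difference was 0.70. RRM2, a subunit of ribonucleotide reductase, rose from 62.7 and 52.3 to 129 and 114 FPKM (log2 difference 1.07, adjusted p = 0.0037, limma). CCNA2, cyclin A2, rose from 20.5 and 17.7 to 41.7 and 40.0 FPKM (1.06, adjusted p = 0.0030), and MCM2, a subunit of the replicative helicase, from 11.2 and 10.7 to 22.9 and 21.8 FPKM (0.96, adjusted p = 0.0035). The 6 that were not called were SLBP (0.33, adjusted p = 0.054), POLA2 (0.81, adjusted p = 0.099), CCNE1, CCNE2, CDC25A and CDC6. With either A3B OE library left out, fewer of the 30 were called, as were fewer of all genes tested. With no filter on low FPKM 10 were called, where 915 of all 15736 genes tested were. With a GC and length trend taken out, the calls over all genes in MEL290 were 1213 higher and 1268 lower, in place of 1195 higher and 870 lower.

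In 92.1, 0 of the 30 targets were called by limma and 0 had an unadjusted p under 0.05, with a median log2 difference of 0.02 and a range from -0.22 to 0.20. POLA2 was at 21.3 and 20.2 FPKM in shCtrl and 19.7 and 15.7 FPKM in shA3B cells, and CDK1 at 48.4 and 43.1 against 49.7 and 55.0 FPKM, the targets with the smallest unadjusted p (0.17 and 0.19). Of the 30, 10 had an A3B OE effect in MEL290 above their shA3B effect in 92.1 by the test over all 8 libraries. Of all genes tested, 3.06% did. The count was 5 with no filter on low FPKM, where 246 of all 17162 genes tested were higher. It was also 5 with a replicate block, where 158 of all 12697 genes tested were higher. With any library left out the count fell, as did that over all genes. Between the control groups 27 of 30 were higher in 92.1, with a median of 1.52, where 39.3% of all genes were, led by MYBL2, CDT1 (2.93), MCM3 (2.73) and MCM2 (2.50).

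**Figure D4:**
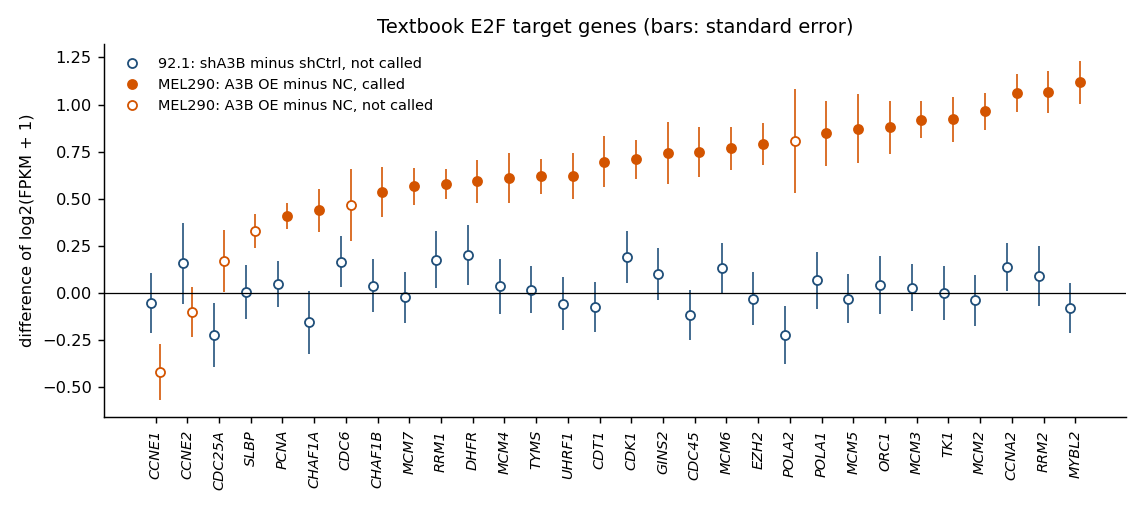
Differences of log2(FPKM + 1) for 30 textbook E2F target genes, with bars for the standard error, in order of the difference in MEL290. Filled points were called and open points were not. The MEL290 points run from -0.42 for CCNE1 to 1.12 for MYBL2 with 24 filled, while the 92.1 points lie between -0.22 and 0.20 with 0 filled.

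Genes of the S and G2/M phases, whose RNA is known to peak there, were also higher in the A3B OE libraries. The S phase list shares genes with the textbook targets, among them RRM2, PCNA, TYMS and MCM4 to MCM7, and CDK1 is also in the G2/M list. The counts below are therefore not separate from those of the targets. In MEL290, 29 of 42 S phase genes (median log2 difference 0.62) and 49 of 54 G2/M genes (median 0.90) were higher in A3B OE cells and 0 lower by limma, where 10.3% of all genes tested were higher, and their summed FPKM rose from 691 to 709 in NC to 1026 to 1128 in A3B OE for S and from 1349 to 1451 to 2379 to 2434 for G2/M. GMNN (1.03) and BLM (0.99) were among the S phase genes with the largest differences, and PIMREG (1.53), CDCA3 (1.49) and HMGB2 (1.45) among those of G2/M. With either A3B OE library left out, fewer S phase genes were called, as were fewer of all genes tested. With no filter on low FPKM, 9 S phase and 32 G2/M genes were called, where 915 of all 15736 genes tested were. In 92.1, 0 genes of either list were called by limma. An unadjusted p under 0.05 by limma was found for 1 of 42 S phase and 6 of 53 G2/M genes. Of all 11605 genes tested, 336 had one. The medians were 0.09 and 0.11, and 37 S phase and 38 G2/M genes lay above 0. Both shA3B libraries lay above both shCtrl libraries for 15 S phase and 22 G2/M genes, and below for 1 and 4. Of all genes tested, 15.3% lay above and 13.3% below. Both lists thus leaned upward in 92.1 too, where A3B was lowered, and this lean was not tested. NUF2 (0.47) and KIF20B (0.86) had the smallest unadjusted p among the G2/M genes (0.0064 and 0.0079, limma). The part of cell cycle phase in the E2F and pocket protein values was not tested.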

How the data were processed

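RNA of 8 libraries was measured, 2 per group. The authors aligned paired reads to GRCh38 with STAR and deposited FPKM values from Cufflinks over Ensembl genes. Tool versions are not given in the sources used here. FPKM is divided by length and mapped fragments, so no count test was run and depth is not known.

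Values were fitted as log2(FPKM + 1) with limma 3.58.1 (lmFit, eBayes with trend) in R 4.3.3, for genes at 1 FPKM or more in at least 2 libraries of the comparison, with Benjamini-Hochberg adjustment over all genes tested and a threshold of 0.05. The fits were tested on simulated data. The members and lists were chosen with earlier results of these data known. All members are named, and of each list up to 4 called genes with the largest change and 2 not called with the smallest p, per comparison; CDK6, CDKN2B, CDKN2D, CCND1, CCND2 and the uncalled targets were named after their values were seen. S and G2/M lists came from Seurat 5.3.0. Positions came from GENCODE release 44 (19020 of 19952 symbols matched), promoters from RefSeq (8 of 10 members matched). Other settings were another pseudocount (0.1), other filters and scalings, no trend, a replicate block, GC and length removal, all libraries in 1 fit and each library left out.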

Additional observations from a re-analysis of the deposited data

Results flagged for a closer look

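The A3B OE effect in MEL290 minus the shA3B effect in 92.1 was tested over all 8 libraries with limma. It passed for 21 genes that the naming rule takes from the lists in any comparison. That rule favours called genes with the largest changes, also in this test, so the 21 cannot be set against other genes as a rate. Of the 10 members 0 passed, where 4.4% of all genes tested did. CDKN1A differed by -1.36 (adjusted p = 0.047), CDKN2A by 0.89 (adjusted p = 0.039) and CDK2 by 0.74 (adjusted p = 0.034), with the limit on the level of CDK2 in 92.1 given above. These 3 were the kinase and inhibitor genes called, and the count fell to 1 without the trend, 0 with no filter on low FPKM, 1 with a replicate block and 0 to 1 with any library left out. MYBL2 differed by 1.20 (adjusted p = 0.0089) and FOXM1 by 0.85 (adjusted p = 0.018). Among the targets, RRM2 differed by 0.98 (adjusted p = 0.047), CCNA2 by 0.92 (adjusted p = 0.013), MCM2 by 1.00 (adjusted p = 0.013), MCM3 by 0.89 (adjusted p = 0.012) and CDT1 by 0.77 (adjusted p = 0.040). Of the other S phase genes, BLM differed by 0.94, CDCA7 by 0.91 and GMNN by 0.91. Of the G2/M genes, PIMREG differed by 1.73, CDCA3 by 1.54, HMGB2 by 1.28, LBR by 1.23, TMPO by 1.03, CENPA by 0.99, NUF2 by 0.97 and TPX2 by 0.85. Target, S phase and G2/M counts in this test fell as well with a library left out, as given below.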

How the results depend on the processing

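Every comparison rests on 2 libraries per group and FPKM gives no depth, so small differences and genes near 1 FPKM are the least certain. Causes of the changes below were not tested. In 92.1 the genes called were 1 with the main setting, 2 without the trend, 0 with no filter on low FPKM (556 at an unadjusted p under 0.05, limma) and 2 to 7 with each library left out. In MEL290 members called were 2 with upper quartile scaling, rescaling to TPM, all 8 libraries in 1 fit or GC and length removed, and 0 to 2 with a library left out. With no filter, 915 genes, 3 kinase and inhibitor genes, 10 targets, 9 S phase and 32 G2/M genes were called in MEL290. Leaving out a library gave 774 to 1944 genes, 2 to 7 kinase and inhibitor genes, 12 to 24 targets and 9 to 28 S phase genes. Between the control groups 40 of 54 G2/M genes were called with the main setting, where 73% of all genes tested were. There 25 to 35 G2/M genes were called with a library left out, the 25 without NC replicate 2. Fewer of all genes tested were called in each of these fits as well. For the difference between the lines, genes called were 559, 328 with 1 FPKM required in every library, 887 with GC and length removed and 150 to 285 with a library left out. Kinase and inhibitor calls were 1 without the trend, 0 with no filter and 0 to 1 with a library left out. Target calls were 5 with no filter and 2 to 5 with a library left out. S phase calls were 0 with no filter, 12 with GC and length removed and 0 to 1 with a library left out. G2/M calls were 15 with no filter and 6 to 16 with a library left out, MuvB, MYB and FOXM1 calls 1 to 2, and member calls 2 with a pseudocount of 0.1.

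Some uncalled member differences near 0 changed sign. Between the lines' effects RBL2 was -0.00133 with upper quartile scaling, -0.026 after rescaling to TPM and -0.00392 with a pseudocount of 0.1, and E2F7 was -0.019 after rescaling to TPM. With a library left out, these ran from -0.14 to 0.15 for E2F7, -0.17 to 0.18 for RBL2, -0.16 to 0.051 for E2F4, -0.40 to 0.16 for E2F5 and -0.17 to 0.026 for RB1. In 92.1 without shCtrl replicate 2, E2F2 was 0.024, E2F3 -0.028, E2F7 -0.063 and RBL2 -0.048, and their ranges over the libraries left out were -0.22 to 0.024, -0.028 to 0.20, -0.063 to 0.23 and -0.048 to 0.30, and without shA3B replicate 2 E2F4 was 0.0041. In MEL290 without A3B OE replicate 2, E2F7 was -0.0080.

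The replicate numbers were not shown to pair libraries: the departures of same-numbered libraries from their group means had correlations of 0.19 (92.1), -0.03 (MEL290) and 0.03 (controls). With a replicate block, 37 genes (20 higher and 17 lower) and 1 G2/M gene were called in 92.1. For the A3B OE effect minus the shA3B effect, it gave 223 genes, 1 kinase and inhibitor gene, 5 targets, 1 S phase and 16 G2/M genes.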

Other observations

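Genes with the most similar profile over the 8 libraries were found as the smallest root mean square difference of centred log2(FPKM + 1) among 9332 genes, as a description with no test. For E2F1 they were TOMM40 (0.067 on the log2 scale), which had means of 114, 103, 45.2 and 59.5 FPKM in shCtrl, shA3B, NC and A3B OE cells, LRR1 (0.068) and TCOF1 (0.070). For RB1 they were PKN2 (0.049), with means of 7.20, 8.17, 17.3 and 19.9 FPKM, TBCEL (0.058) and TANC1 (0.068). For E2F8 they were ATP6V1B2 (0.040), with means of 106, 102, 34.4 and 44.4 FPKM, INPP5E (0.043) and SDC3 (0.061). E2F8 itself had means of 2.60, 2.30, 0.169 and 0.492 FPKM, where this scale compresses changes. The genes searched had a mean of at least 4 FPKM. The likeness for E2F8 is thus one of compressed values and not of fold changes. The 8 points of each profile share 2 lines.

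The 20 tested genes nearest to each member on its chromosome had median log2 differences between -0.10 and 0.16 in MEL290. The median log2 difference of those around RBL1 was 0.05 (RBL1 itself 0.68), around E2F1 -0.03 (E2F1 0.42), around E2F3 -0.09 (E2F3 -0.25) and around RB1 0.03 (RB1 0.19). Around E2F4 it was 0.16 (E2F4 -0.12) and around E2F5 -0.10 (E2F5 -0.46).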
